A study of Mus musculus with 12 samples.

Results

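The comparison set a lung metastasis against a primary tumour where gamma rays had been given to the primary tumour in both cases. The tumour was NR-S1, a mouse squamous cell carcinoma, grown in the hind leg of male C3H/HeMsNrs mice. Tumours that had reached a diameter of 7.5 mm were left alone, or were treated in the leg with gamma rays (8 Gy) or carbon ions (5 Gy). Lung metastases were collected 2 weeks after this, whereas the primaries came from other mice at 1 week, so that time and host differ as well as site. RNA of laser-microdissected tumour cells was amplified linearly. Each condition gave 1 RNA, which the labels call clone 1, and the sources used here do not say how many animals it came from.

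Of the 12 two-colour arrays of the series, 4 entered this comparison: the metastasis after gamma rays and the primary after gamma rays, each hybridised against the unirradiated primary in both dye orientations. For each orientation the log2 ratio of the primary was subtracted from that of the metastasis, so that the unirradiated primary cancelled, and the results were averaged. This difference is called the gamma gap here and is positive where the metastasis was higher. Of 27670 genes or other features on the array, 17243 were measured. In each orientation their probe stood well above its background in the metastasis or the primary after gamma rays. The SD given with each value is over the 2 orientations and covers array error, with the dye effect cancelled. It does not cover the spread between animals, so that no value had a replicate check and no test was possible. The calls higher and lower were given for a gap of at least 1 on the log2 scale, that is 2-fold, with the same sign in both orientations.

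The metastasis arrays lay on one slide, with those of the unirradiated metastasis, and the primary arrays on another, with those of the metastasis after carbon ions. Slide and site therefore cannot be told apart in the gamma gap. The signal of the unirradiated primary itself differed between the metastasis arrays and the primary arrays for some of the genes with the largest gaps. It was at least 2-fold higher on the metastasis arrays for 34 of the 17243 genes, 33 of which were called higher in the metastasis, and at least 2-fold lower for 3. Among the 119 genes at least 8-fold higher in both orientations, 24 were shifted in this way, with a median shift of 0.26 over the 119. They included genes of lung epithelium, of B cells, such as Ighm with a shift of 2.05, and of lymphoid tissue, such as Ccl19 with 1.26. For Sftpc its normalized log2 signal was 13.42 on the metastasis arrays and 6.33 on the primary arrays, against 18.67 for the metastasis and 6.07 for the irradiated primary. For such genes the gap is smaller than the distance between the signals of the RNAs themselves.

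A squamous carcinoma carries the keratins and desmosomal proteins of stratified epithelium wherever it grows, while the cells around it are those of the organ. In the lung these are alveolar cells that make surfactant, secretory and ciliated airway cells, a dense capillary endothelium and resident macrophages. In the leg they are skeletal muscle, fibroblasts and dermal cells. Interferons switch on a shared programme of antiviral and antigen-presenting genes, and low oxygen stabilises a transcription factor that switches on glycolysis genes. Both programmes are common in tumours and both were measured here.

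The gamma gap was mostly one-sided. Of the 17243 genes measured, 1344 were called higher in the metastasis, which is 7.79%, and 156 were called lower, which is 0.905%. With Agilent's processed ratios 606 were lower. Of all calls 89.6% were thus higher, against 77.9% with Agilent's processed ratios. The median over all genes was 0.05 and the median SD was 0.05. At 8-fold or more in both orientations, 119 genes were higher and 2 were lower. For 303 of the genes called higher the irradiated primary was not well above background on either array, and for 1 of those called lower the metastasis was not. For such genes a bound on the fold, given as at least N-fold by signal, was computed from the normalized signals of the channels and is given beside the gap from the ratios. It sets the bright RNA's mean over the lowest signal among probes above background on the dim RNA's arrays, or over the dim probe's own signal where that was higher. The signals were not corrected for the shift of the unirradiated primary between metastasis and primary arrays. The value was above the fold from the ratios for 136 of the 303 genes, and over 1.5 times it for 31. It is thus a bound on the signals of these arrays and not on the gap. Lowest of those called in this way was C1qtnf3, a secreted protein, at least 3.86-fold lower by signal with a gap of -1.92 in the metastasis.

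**Figure D1:**
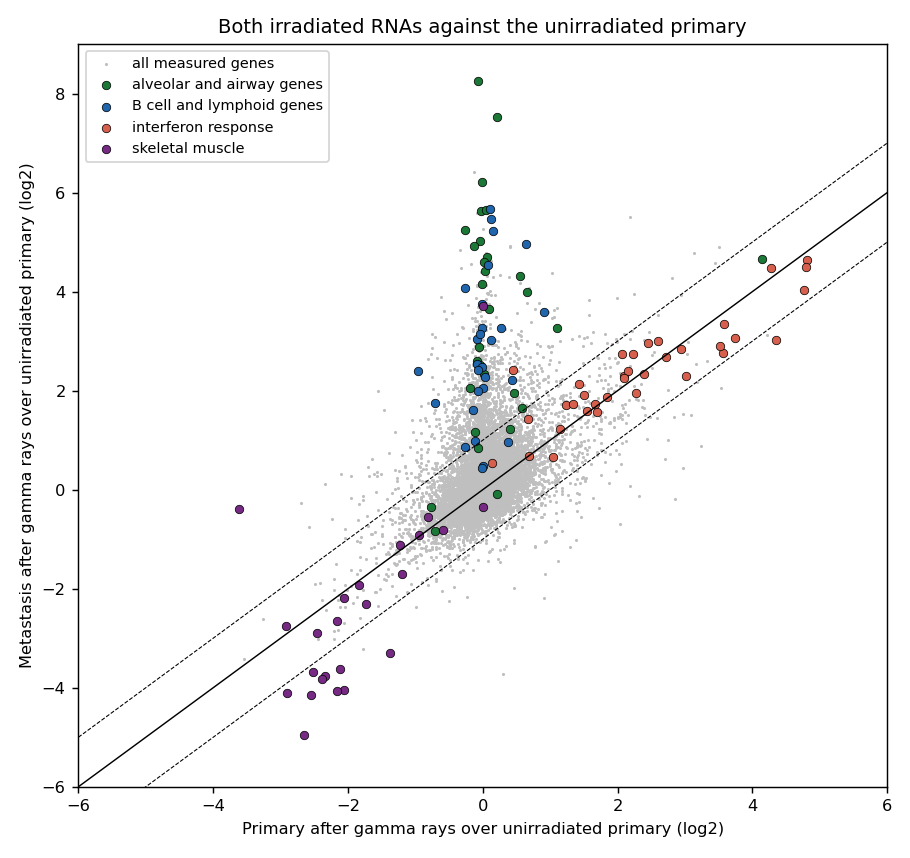
Each point is a gene, with its mean log2 ratio over the unirradiated primary in the primary after gamma rays (x axis) and in the metastasis after gamma rays (y axis); the solid line marks equal values and the dashed lines a 2-fold difference. Alveolar, airway, B cell and lymphoid genes stand in a column near 0 on the x axis, while interferon response genes lie along the line of equal values and most skeletal muscle genes lie below 0 on both axes.

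Epithelial genes of the tumour itself were present in both RNAs. All 28 keratin and keratinocyte genes measured were above background on all 4 arrays. The median gap over them was 0.01, or -0.43 with median centring in place of loess. Of the 28, 3 were called higher and none lower, against 7.79% and 0.905% of all measured genes. The basal keratins Krt5, with a gap of -0.04 ± 0.07 (SD over the orientations), and Krt14, with -0.41 ± 0.23, and the squamous master regulator Trp63, with -0.17 ± 0.10, were not called. The members called were Krt23 (gap 2.15 ± 0.02), Krt16 (1.56 ± 0.10), a keratin of activated epidermis, and Krt19 (1.55 ± 0.14), a keratin of simple epithelia. Krt23 stood at 0.42 and 0.47 over the unirradiated primary in the metastasis and at -1.75 and -1.66 in the irradiated primary, with the sample's own RNA in Cy5 and then in Cy3. Krt23 and Krt19 thus lay near the unirradiated primary in the metastasis and below it in the irradiated primary. Genes of the cornified envelope, the outer shell of terminally differentiated keratinocytes, were listed together with stefin genes. The list had a median gap of 0.83, or 0.40 with scaling between arrays, with 10 of 22 called higher and none lower. Among them Sprr2h had 1.83 ± 0.03, Cnfn 1.72 ± 0.04 and Sprr2d 1.39 ± 0.09, while the involucrin gene Ivl, with 0.29 ± 0.04, and loricrin Lor, with 0.38 ± 0.00, were not called. Neighbouring Sprr genes and the stefin genes Stfa2, Stfa3 and Cstdc6 have close copies, so that their probes may not tell them apart. The part of neutrophils in the values of the stefin genes was not tested.

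**Figure D2:**
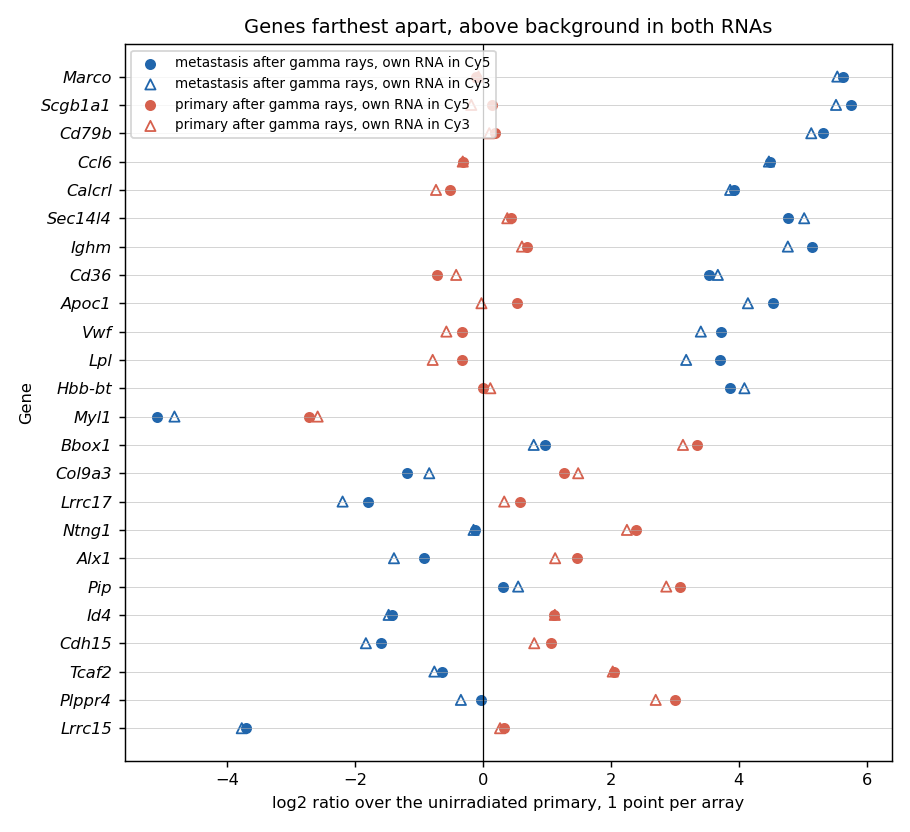
The 12 highest and 12 lowest genes with both RNAs after gamma rays above background, by their log2 ratio over the unirradiated primary, 1 point per array. Blue is the metastasis, red the primary, circles have the sample's own RNA in Cy5 and triangles in Cy3. The genes were chosen for their gaps, so that blue and red points lie apart by choice; for the 12 highest genes the red points lie between -0.79 and 0.68.

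Genes of the lung's own epithelium had some of the largest gaps. Scgb1a1, the club cell secretoglobin, stood at 5.75 and 5.52 over the unirradiated primary in the metastasis and at 0.14 and -0.18 in the irradiated primary, a gap of 5.66 ± 0.06 or 50.5-fold. The unirradiated primary's signal of Scgb1a1 was 10.89 on the metastasis arrays and 6.54 on the primary arrays, and the RNAs' own signals were 16.52 and 6.52, so that the gap is smaller than their distance. Its relative Scgb3a2 stood at 8.20 and 8.31 in the metastasis and was not above background in the primary, with a gap of 8.32 by ratios, or 321-fold, and a difference of at least 535-fold by signal. Of 14 airway secretory genes 12 were called higher and none lower, against 7.79% and 0.905% of all measured genes. Their median gap was 3.96, or 2.18 over those above background in both RNAs. Muc5b, an airway mucin, was at least 7.26-fold higher by signal with a gap of 2.55, and Reg3g, an antibacterial lectin, at least 73.1-fold by signal with a gap of 5.59. Cyp2f2, a club cell cytochrome, was an exception in its pattern, since it was high in both RNAs, at 4.79 and 4.54 in the metastasis and at 4.31 and 3.96 in the primary.

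Of 16 alveolar genes 12 were called higher and none lower, against 7.79% and 0.905% of all measured genes. Their median gap was 2.50, or 0.99 over the members above background in both RNAs. Surfactant protein genes led them. Sftpc stood at 6.10 and 4.39 in the metastasis against -0.15 and -0.37 in the primary, a gap of 5.50 or 45.4-fold by ratios, and its signals put it at least 5360-fold higher. Sftpd had a gap of 7.31 ± 0.18. Ager, the receptor that marks alveolar type 1 cells, was at least 64.5-fold higher by signal with a gap of 4.38, and the lung transcription factor Nkx2-1 at least 5.14-fold by signal with a gap of 2.32. The least different members were Pdpn, with -0.30 ± 0.06, Etv5, with -0.12 ± 0.07, and Aqp5, with 0.41 ± 0.12, which were above background in both RNAs.

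Ciliated cell genes were higher in smaller number. Of 15 measured, 6 were called higher and none lower, against 7.79% and 0.905% of all measured genes. Their median was 0.69, or 2.49 with Agilent's processed ratios. All 15 values were above 0. However, 7 of the 15 were not above background in the irradiated primary and counted as measured through the metastasis alone. The sign of these 7 therefore tells little. Foxj1, the master regulator of motile cilia, stood at 2.82 and 2.56 in the metastasis and at -0.10 and 0.12 in the primary, a gap of 2.68 ± 0.34. Dynlrb2, a dynein light chain, was at least 18.9-fold higher by signal with a gap of 3.29. Among genes that mark body position, Tbx5, a factor of lung mesenchyme, heart and forelimb, was at least 2.94-fold higher by signal with a gap of 1.52 and Hoxb5 at least 1.99-fold by signal with a gap of 1.05, and 2 of 8 were called in all.

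Vessel genes were higher almost throughout. Of 22 endothelial genes 20 were called higher and none lower, with a median gap of 1.77. Calcrl, part of the adrenomedullin receptor, stood at 3.92 and 3.86 in the metastasis and at -0.51 and -0.73 in the primary, a gap of 4.52 ± 0.11 or 22.9-fold, although a second probe gave 0.32. Vwf, which makes the clotting factor of endothelial granules, had 4.02 ± 0.06, and Cldn5, a tight junction protein of endothelium, 3.08 ± 0.11. Ednrb, with -0.07 ± 0.17, and Emcn, with 0.47 ± 0.01, were not called. Genes of red blood cells moved beside them: Hbb-bt had 3.92 ± 0.07, and 3 of 4 were called higher. Of 14 smooth muscle and pericyte genes 1 was called, Kcnj8 with 1.27 ± 0.02, whose second probe gave 0.39. Over all measured genes 7.79% were called higher. In RNA from a mixture of cells, more cells of a type and more RNA per cell cannot be told apart, which holds for every cell type list here. The part of cells other than tumour cells in the gamma gap was not tested.

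Marco, a scavenger receptor of lung macrophages, had the largest gap by ratios among genes above background on all 4 arrays, ahead of Scgb1a1, whose signals lay further apart. It stood at 5.63 and 5.54 in the metastasis and at -0.12 and -0.07 in the primary, which gave 5.68 ± 0.10 or 51.1-fold, with signals of 12.99 and 6.55. Of 19 macrophage genes 10 were called higher and none lower, with a median of 1.02. Over all measured genes 7.79% were called higher and 0.905% lower. Lyz2, the macrophage lysozyme, had 3.76 ± 0.49, Chil3 2.90 ± 0.09, and the mannose receptor Mrc1 2.31 ± 0.04. The complement genes C1qa, C1qb and C1qc, which macrophages of many tissues express, had gaps of 0.13 ± 0.07, 0.09 ± 0.00 and 0.07 ± 0.03. Neutrophil genes were called higher in 11 of 14, with a median of 1.71, led by S100a9 with 3.90 ± 0.51 and S100a8 with 3.63 ± 0.06. Of 18 T and natural killer cell genes 10 were called higher, with a median of 1.13 that fell to between 0.63 and 0.67 under other scalings. Lck, the kinase of the T cell receptor, had 2.80 ± 0.05 and Cd3d 2.44 ± 0.18, while Cd3e, with -0.06 ± 0.10, and Ifng, with -0.47 ± 0.16, were not called.

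B cells and the organisers of lymphoid tissue showed large differences in the same direction. Of 17 B cell and plasma cell genes 15 were called higher and none lower, against 7.79% and 0.905% of all measured genes. Their median gap was 2.64, or 3.98 with the authors' value table, and 13 of the 17 were not above background in the irradiated primary. Cd79b, a signalling chain of the B cell receptor, stood at 5.32 and 5.13 in the metastasis and at 0.19 and 0.10 in the primary, a gap of 5.08 ± 0.07 or 33.8-fold. Ms4a1, which encodes CD20, was at least 43.5-fold higher by signal with a gap of 5.33, and Cr2, the complement receptor of mature B cells and follicular dendritic cells, at least 5.22-fold by signal with a gap of 2.64. Ighm, the heavy chain of IgM, had 4.31 ± 0.21.

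Of 11 lymphoid organisation genes 9 were called higher and none lower, against 7.79% and 0.905% of all measured genes. Their median gap was 2.69, or 1.79 over those above background in both RNAs. Ccl19, a chemokine that draws T cells and dendritic cells into lymph nodes, stood at 5.84 and 5.48 in the metastasis and at 0.23 and 0.00 in the primary, a gap of 5.55 ± 0.10. Cxcl13, which draws B cells into follicles, was at least 29.8-fold higher by signal with a gap of 4.33, and its receptor Cxcr5 at least 12.9-fold by signal with a gap of 3.18. Glycam1, a ligand for lymphocyte homing made by the venules of lymph nodes, was at least 56.6-fold higher by signal with a gap of 4.45. Genes of the wider list of chemokines and cytokines were higher in 10 of 28, with none lower. They were led by Ccl6, with 4.80 ± 0.01, by the lung chemokine Cxcl15, at least 63.6-fold higher by signal with a gap of 4.22, and by Ccl5, with 3.33 ± 0.09. Complement genes were higher in 7 of 19, led by Hc, which encodes C5, with a gap of 6.54 or 93.2-fold by ratios and at least 183-fold by signal. Among genes of no list, the lipid-binding Sec14l4 had 4.49 ± 0.21 and the apolipoprotein Apoc1 had 4.08 ± 0.12. Sec14l3, a relative of Sec14l4 that is counted in the airway secretory list, had 6.22 ± 0.19, or at least 105-fold by signal. Other probes of Sec14l3 gave 1.67 to 3.42.

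Fat and heart-type muscle genes were also higher in the metastasis. Of 10 adipocyte genes 8 were called higher and none lower, against 7.79% and 0.905% of all measured genes. Their median was 1.72, or 2.74 with Agilent's processed ratios. Of the 10, 5 were not above background in the irradiated primary and counted as measured through the metastasis alone. Cfd, the fat cell protease adipsin, was at least 26.7-fold higher by signal with a gap of 4.73 and Adipoq, the fat hormone adiponectin, at least 2.67-fold by signal with a gap of 1.36. Fabp4, Pparg, Lpl and Cd36 belong to fat cells but also to lung macrophages or capillaries. The heart-type muscle list was added after values had been seen. The other lists too were chosen with earlier results of these data known, so that the counts of all lists only describe. Of the 12 measured members of the heart-type list 8 were called higher and none lower. They included Myh7, with 3.71 ± 0.10, Sln, whose protein restrains the calcium pump of muscle, with 3.22 ± 0.07, the cardiac myosin-binding protein Mybpc3, with 2.16 ± 0.01, and the atrial peptide gene Nppa, at least 3.2-fold higher by signal with a gap of 1.62, although a second probe of Nppa gave 0.39. Actc1, the main actin of heart muscle, had -0.65 ± 0.00. The labels name no tissue beyond tumour cells of the lung, and the part of heart or pulmonary vein muscle in these values was not tested.

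**Figure D3:**
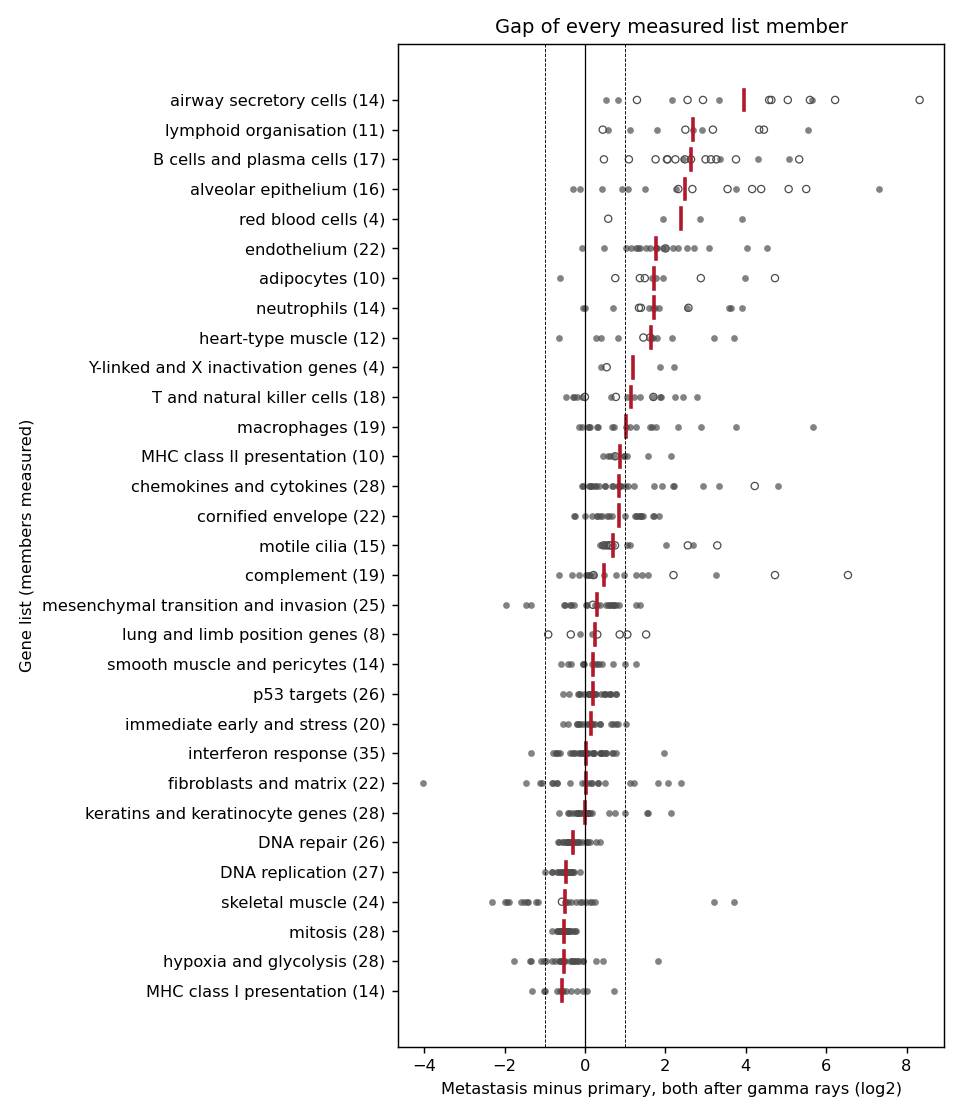
Each point is the gamma gap of a list member on the log2 scale. Filled points were above background in both RNAs after gamma rays on at least 1 array each. Open points were not above background in 1 of these RNAs. Red bars are list medians, dashed lines the 2-fold rule and numbers the members measured. Airway, lymphoid, B cell and alveolar lists have the highest medians, and mitosis and DNA replication genes lie without exception below 0.

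Genes lower in the metastasis were fewer, and genes of matrix, muscle and skeleton were among the lowest. Lrrc15, a membrane protein of activated fibroblasts and mesenchymal tumours, stood at -3.70 and -3.77 in the metastasis and at 0.33 and 0.27 in the primary. Its gap of -4.03 ± 0.01, or 16.3-fold, was the lowest of all, and a second probe gave -1.28. Alx1, a homeobox regulator of skeletal patterning, had -2.46 ± 0.09, or -4.11 with Agilent's processed ratios, Cdh15, the cadherin of muscle precursors, -2.65 ± 0.02, and Col9a3, a cartilage collagen, -2.39 ± 0.09. Id4, an inhibitor of helix-loop-helix factors, had -2.56 ± 0.05, and Lrrc17, a secreted regulator of bone cells, had -2.45 ± 0.10. Over the unirradiated primary, Alx1, Cdh15, Col9a3, Id4 and Lrrc17 stood at 1.30, 0.93, 1.38, 1.11 and 0.46 in the irradiated primary. In the metastasis they stood at -1.16, -1.71, -1.01, -1.45 and -1.99. Both sides thus entered their gaps.

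Other genes at the bottom were high in the irradiated primary rather than low in the metastasis. Plppr4, a phospholipid phosphatase-related membrane protein, stood at -0.03 and -0.34 in the metastasis and at 3.0 and 2.7 in the primary, a gap of -3.04 ± 0.01, or -4.86 with Agilent's processed ratios. Ntng1, a netrin-related guidance protein, with a gap of -2.46 ± 0.09 and of -1.47 by a second probe, Pip, a secreted protein of glands, with -2.54 ± 0.32, and Bbox1, an enzyme of carnitine synthesis, with -2.35 ± 0.03, had the same shape. In these the metastasis lay within 1 of the unirradiated primary and the irradiated primary more than 2 above it, and Tcaf2, with -2.74 ± 0.07, followed them.

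Fibroblast genes went both ways. Of 22 matrix genes 4 were called higher and 3 lower, against 7.79% and 0.905% of all measured genes, around a median of 0.04. Postn, a matrix protein of wound and tumour stroma, had -1.47 ± 0.10 and Thbs2 -1.11 ± 0.02, beside Lrrc15. Dcn, a small proteoglycan, had 2.38 ± 0.03, the elastin gene Eln 2.08 ± 0.05, Pdgfra 1.80 ± 0.01 and Dpt 1.22 ± 0.18. Of 25 genes of invasion and mesenchymal transition, 3 were lower, namely the collagenase Mmp13 with -1.97 ± 0.10, the matrix protein Tnc with -1.48 ± 0.01 and Mmp10 with -1.34 ± 0.11. The repressors of epithelial genes Zeb1, with 1.27 ± 0.06, and Zeb2, with 1.36 ± 0.00, were higher, although other probes of Zeb2 gave 0.17 to 0.87. They were the only 2 of the 25 called higher, against 7.79% of all measured genes. Other probes of Tnc gave -0.95 to -0.39. Neither Snai2, with -0.37 ± 0.07, nor Vim, with -0.28 ± 0.21, was called.

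Skeletal muscle genes were lower in 10 of 24 and higher in 2, against 0.905% and 7.79% of all measured genes. Their median gap was -0.49. Myl1, a myosin light chain of fast fibres, stood at -5.09 and -4.82 in the metastasis and at -2.71 and -2.58 in the primary, a gap of -2.31 ± 0.10, with -0.54 by a second probe. The median of the list over the unirradiated primary was -2.70 in the metastasis and -2.09 in the irradiated primary. Both RNAs thus lay below the unirradiated primary. The list median of the gap was -0.04 with scaling between arrays and -1.53 with Agilent's processed ratios. The members that were higher, Sln and Myh7, are expressed in slow and heart-type muscle.

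Cell cycle genes lay slightly below 0 in the gamma gap without reaching the 2-fold rule. All 28 mitosis genes lay below 0, between -0.82 for Cdk1 and -0.23 for Cenpe, with a median of -0.51. All 27 DNA replication genes lay below 0 as well, with a median of -0.47 and with Gins2 lowest at -0.99 ± 0.10. With median centring the medians were -0.80 and -0.76. The median over all genes was 0.05. Between the unirradiated metastasis and primary the mitosis and DNA replication genes had medians of -0.39 and -0.345, with no member called. In the primary after gamma rays the mitosis genes had a median of 0.28 over the unirradiated primary, and in the metastasis they had -0.19. DNA repair genes had a median gap of -0.30. None of 26 p53 targets was called, with a median of 0.19, and the cell cycle inhibitor Cdkn1a had 0.23 ± 0.00. None of 20 immediate early genes was called. Over all measured genes 7.79% were called higher and 0.905% lower, so that few calls would be seen in lists of this size. The Y-linked genes Eif2s3y, with 2.22 ± 0.07, and Ddx3y, with 1.87 ± 0.04 but 0.26 by a second probe, were higher in the metastasis, and Xist had 0.40 ± 0.02. The mice were male per the labels.

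The same gap can be taken between unirradiated tumours, from the 2 arrays of the unirradiated metastasis over the unirradiated primary. There 1781 of 17103 genes were higher, which is 10.4%, and 289 were lower, which is 1.69%. Both gaps use the unirradiated primary and the differences between them therefore rest on 4 RNAs, while the SD of such a difference also holds the dye effect, which the mean over orientations cancels. In the gamma gap 316 of 16425 genes stood at least 2-fold above their place in the unirradiated gap in both orientations, which is 1.92%, and 515 stood as far below it, which is 3.14%. For the 515 genes the median gap was 2.01 without irradiation and 0.24 after gamma rays, and 353 of them were within 1 in the gamma gap. Among these 515 the change of the primary after gamma rays had a median of 1.01 and the difference between the metastases a median of -0.63. The primary side was the larger for 319 of them.

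Interferon response genes were among those whose gap closed. Igtp, an interferon-induced GTPase, stood at 4.02 and 4.06 over the unirradiated primary in the metastasis and at 4.73 and 4.80 in the primary after gamma rays. Its gap was -0.73 ± 0.02 after gamma rays and 5.64 ± 0.10 without irradiation, a difference of -6.37 ± 0.08. Cxcl9, a chemokine for activated T cells, fell from a gap of 4.99 to -1.34 ± 0.07, a difference of -6.33 ± 0.16. Of 35 interferon response genes 33 had a smaller gap and none a larger one, against 3.14% and 1.92% of all genes. The median over the list was 3.02 without irradiation and 0.04 after gamma rays. Over the unirradiated primary the list stood at a median of 2.16 in the primary after gamma rays and of 2.34 in the metastasis after gamma rays. The only members called in the gamma gap itself were Cxcl9, lower, and Rsad2, an antiviral enzyme, higher with 1.96 ± 0.04, whose other probes gave 0.66 to 0.69.

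**Figure D4:**
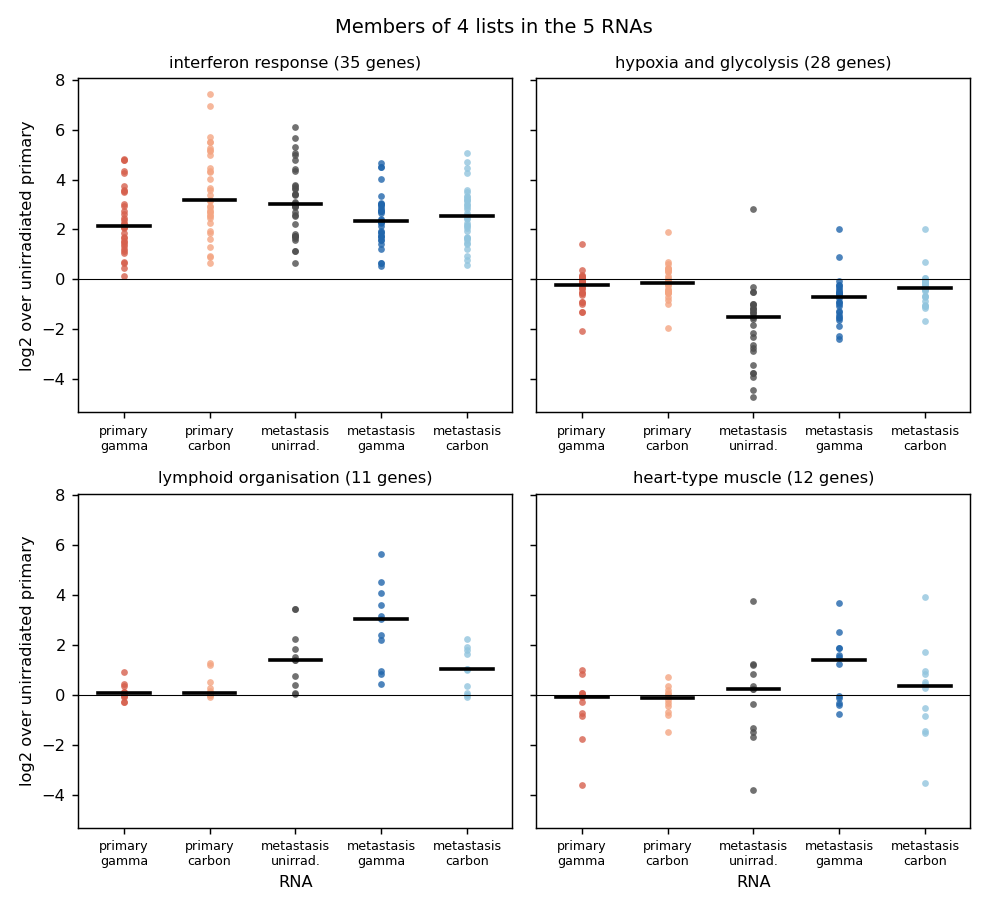
Log2 ratios over the unirradiated primary (y axis) of every measured member of 4 lists in the 5 other RNAs (x axis), with black bars at the medians. Interferon response genes have medians of 2.16 in the primary after gamma rays, 3.02 in the unirradiated metastasis and 2.34 in the metastasis after gamma rays; lymphoid organisation genes have 0.08, 1.41 and 3.03.

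Antigen presentation followed. Of 14 genes of MHC class I presentation 13 had a smaller gap than without irradiation, against 3.14% of all genes. The median went from 2.07 to -0.56, or to -1.09 with scaling between arrays. Some class I genes gave nearly the same values, such as H2-Q7 and H2-T23. These stood at 2.04 and 2.02 in the primary and both at 1.46 in the metastasis. Whether their probes tell them apart was not tested, so that the members may not be separate measurements. Tap1, which pumps peptides into the endoplasmic reticulum, stood at 0.59 and 0.84 in the metastasis and at 1.92 and 2.13 in the primary, and its gamma gap of -1.31 ± 0.02 was called. Psmb9, a subunit of the immunoproteasome, had -1.01 ± 0.13 and was not called, being under 2-fold in an orientation. Of 9 class II genes measured in both gaps 8 had a smaller gap. Class II genes were nonetheless above 0 throughout the gamma gap, between 0.45 and 2.13 with a median of 0.86, or 0.21 with scaling between arrays. Ciita, the regulator of class II transcription, had 1.56 ± 0.05. Ifng, the gene of interferon gamma, had a gap of 2.89 ± 0.06 without irradiation and was 1.28 and 1.05 in the primary after gamma rays.

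Promoters of 3 of the genes with the largest loss are shown because the listed genes move together. Iigp1, with a difference of -6.27, lost more than Cxcl10, with -5.84, and is named only. They are RefSeq sequences of the assembly GRCm38.p6, 250 bases up to the start of the gene and written 5′ to 3′ on the gene's strand. Capitals mark the letters GAAA, any 2 bases and GAAA again, the core of an interferon-response type element, on either strand.
Igtp (chr11:58199306-58199555, + strand): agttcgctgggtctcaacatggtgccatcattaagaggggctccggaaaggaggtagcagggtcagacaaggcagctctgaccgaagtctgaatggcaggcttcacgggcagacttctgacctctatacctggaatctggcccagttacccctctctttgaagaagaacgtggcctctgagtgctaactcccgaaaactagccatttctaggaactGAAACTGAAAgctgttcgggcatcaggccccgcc
Cxcl10 (chr5:92348890-92349139, - strand): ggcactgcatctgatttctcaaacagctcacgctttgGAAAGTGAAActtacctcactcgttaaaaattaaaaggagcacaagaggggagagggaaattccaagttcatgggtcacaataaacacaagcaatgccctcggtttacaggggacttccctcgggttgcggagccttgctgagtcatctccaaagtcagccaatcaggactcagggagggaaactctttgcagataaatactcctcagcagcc
Cxcl9 (chr5:92328080-92328329, - strand): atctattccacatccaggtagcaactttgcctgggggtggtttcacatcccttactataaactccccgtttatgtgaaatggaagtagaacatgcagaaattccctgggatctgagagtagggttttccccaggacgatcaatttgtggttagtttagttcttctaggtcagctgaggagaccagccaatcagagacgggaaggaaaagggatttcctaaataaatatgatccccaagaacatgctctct
Of the 35 interferon response genes measured, 27 had such a window, and 14 of these, or 51.9%, held the letters at least once. Among 27025 genes with a window the share was 3.46%. The letters TTCNNNGAA of a STAT type element were held by 7 of the 27 and by 8.13% of all genes with a window. Both motifs occurred in 109 of 32851 windows and overlapped in 18. A match describes the letters and is not evidence of binding, and the absence of a match in Cxcl9 concerns this window only.

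Hypoxia and glycolysis genes moved the other way. Adm, the gene of the vessel-dilating peptide adrenomedullin, stood at -1.38 and -1.67 in the metastasis and at -1.14 and -1.43 in the primary, both after gamma rays. Its gap was -4.70 ± 0.23 without irradiation and -0.24 ± 0.01 after gamma rays. Of 28 genes 13 stood above their place in the unirradiated gap and none below, against 1.92% and 3.14% of all genes. The list median went from -1.49 to -0.51, or to -0.90 with median centring. In the gamma gap itself 4 were called lower, namely Mgarp (-1.75 ± 0.05), the carbonic anhydrase Car9 (-1.36 ± 0.10), the oxygen-sensing enzyme Egln3 (-1.34 ± 0.12) and Pdk1 (-1.10 ± 0.01), which keeps pyruvate out of the mitochondrion. Pfkfb4, a regulator of glycolysis, was higher with 1.82 ± 0.01. Over the unirradiated primary the list stood at a median of -0.21 in the primary after gamma rays, -1.49 in the unirradiated metastasis and -0.70 in the metastasis after gamma rays.
The promoters of the 3 members with the largest difference between the gaps follow, with capitals for the letters ACGTG of a hypoxia-response type element on either strand.
Adm (chr7:110627407-110627656, + strand): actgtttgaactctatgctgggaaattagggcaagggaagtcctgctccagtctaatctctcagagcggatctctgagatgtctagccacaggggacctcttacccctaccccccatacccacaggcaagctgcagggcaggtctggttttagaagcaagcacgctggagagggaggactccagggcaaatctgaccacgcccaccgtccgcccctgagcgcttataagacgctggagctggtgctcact
Ero1a (chr14:45318573-45318822, - strand): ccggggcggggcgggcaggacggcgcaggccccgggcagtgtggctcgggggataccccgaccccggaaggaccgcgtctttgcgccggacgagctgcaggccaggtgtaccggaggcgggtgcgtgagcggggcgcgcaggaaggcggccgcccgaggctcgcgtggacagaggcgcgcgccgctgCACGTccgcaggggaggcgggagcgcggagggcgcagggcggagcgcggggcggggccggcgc
Bnip3 (chr7:138909507-138909756, - strand): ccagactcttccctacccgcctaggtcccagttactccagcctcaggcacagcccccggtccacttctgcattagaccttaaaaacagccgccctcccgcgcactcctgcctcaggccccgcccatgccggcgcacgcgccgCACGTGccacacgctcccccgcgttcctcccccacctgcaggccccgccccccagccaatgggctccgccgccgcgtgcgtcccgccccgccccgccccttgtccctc
Of 27 hypoxia and glycolysis genes with a window 19 held these letters, or 70.4%, against 18.5% of all genes with a window and 24.1% of the measured genes that had one.

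Skeletal muscle genes stood above their place in the unirradiated gap in 20 of 24 cases, against 1.92% of all genes. Their median gap was -2.85 without irradiation and -0.49 after gamma rays. Sln went furthest. It was at -0.26 and -0.54 in the metastasis and at -3.52 and -3.71 in the primary after gamma rays, which gave a gap of 3.22 ± 0.07 against -3.80 without irradiation. The unirradiated gap holds the RNA of the unirradiated primary. By the medians given above, muscle genes stood higher in it than in both RNAs after gamma rays. The part of the unirradiated primary's RNA in the difference was not tested. Car3, a carbonic anhydrase of muscle and fat, went from -1.81 to 1.94 ± 0.09, and Rhox5, a homeobox gene often active in tumours, from -1.78 to 1.82 ± 0.02. Edn2, a vessel-constricting peptide, went from -3.42 to 0.49 ± 0.01.

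Some airway, B cell and lymphoid genes had larger gaps after gamma rays than without irradiation. Scgb3a2 was at 4.12 ± 0.04 in the unirradiated metastasis and at 8.20 and 8.31 in the metastasis after gamma rays. Bpifa1, an airway defence protein, was at 0.47 and then at 4.86 and 4.55, and the difference between its gaps was 4.17, or 1.55 with Agilent's processed ratios. Reg3g did not count as measured without irradiation, where its ratio was -0.01, and was then at 5.64 on both arrays. In the metastasis after carbon ions Scgb3a2 was at 8.07, near its value after gamma rays, while Bpifa1 was at 2.66 and Reg3g at 1.85. Of the 11 airway secretory genes measured in both gaps 5 had a larger gap and 1, Cyp2f2, a smaller one. B cell genes had a larger gap in 10 of 15 and lymphoid organisation genes in 4 of 9, with none smaller in either list. Cxcl13 was at 0.75 ± 0.20 without irradiation. Glycam1, with a ratio of 0.07 ± 0.05 there, likewise did not count as measured without irradiation. Alveolar genes had a larger gap in none of 16 and a smaller one in 1, with medians of 2.55 and 2.50. Over all genes measured in both gaps 1.92% had a larger gap and 3.14% a smaller one. The alveolar counts are near these shares. Neutrophil genes had a smaller gap in 8 of 14, with medians of 3.19 and 1.71, and macrophage genes in 7 of 19. Chil3 went from 5.83 ± 0.21 to 2.90 ± 0.09 and the granule peptide Camp from 4.01 ± 0.08 to 1.34 ± 0.04, with the primary not above background.

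**Figure D5:**
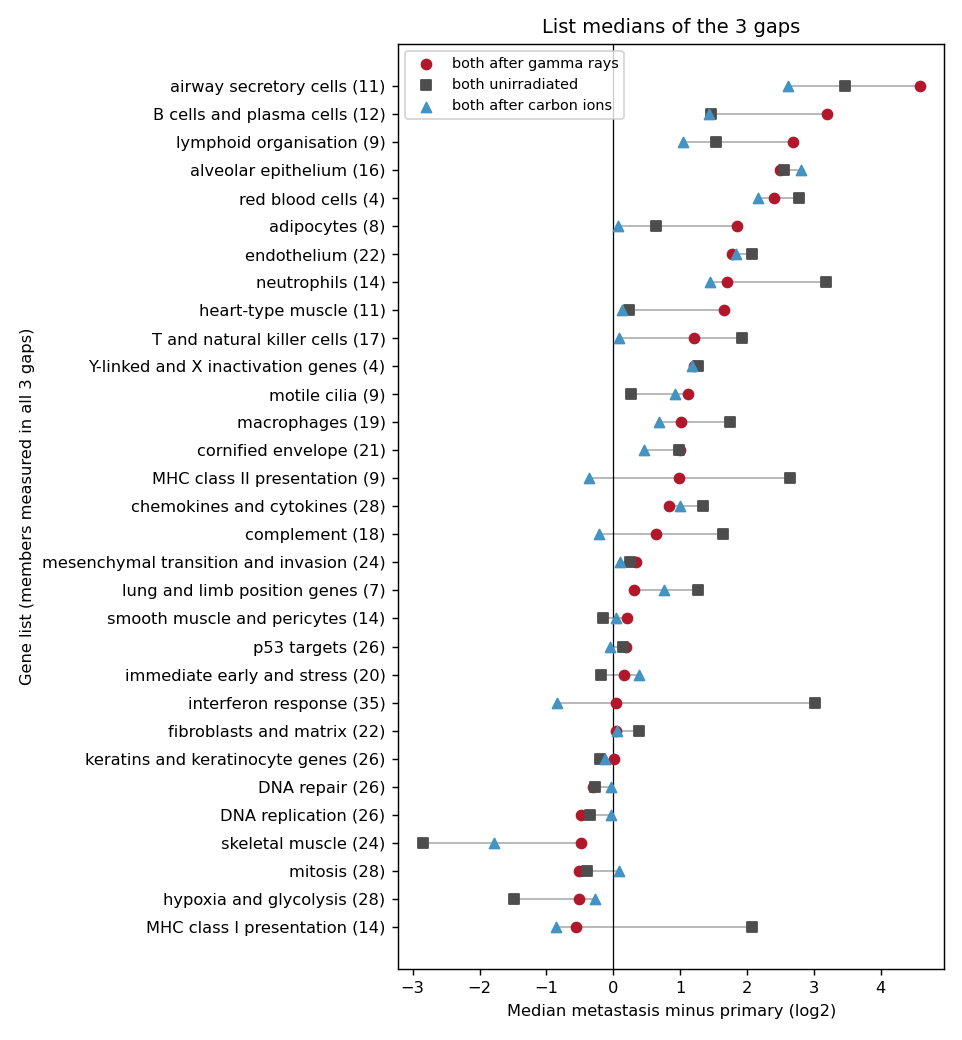
Median metastasis minus primary on the log2 scale for each list after gamma rays (circles), without irradiation (squares) and after carbon ions (triangles), over the members measured in all 3 gaps. Interferon, MHC and skeletal muscle lists spread furthest between the gaps, and the alveolar, endothelial and Y-linked lists least among those with medians above 1.

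Tumours after carbon ions gave a gap of their own. In the carbon gap 1112 of 16214 genes were higher, which is 6.86%, and 313 were lower, which is 1.93%. The carbon metastasis shared a slide with the gamma primary, and dose, 5 against 8 Gy, differed along with the beam. Compared with its place in the carbon gap, a gene stood at least 2-fold higher in the gamma gap in 299 of 16013 cases, which is 1.87%, and lower in 40, which is 0.25%, against 216 with Agilent's processed ratios.

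Genes of B cells, lymphoid tissue, fat and muscle stood on the higher side. Cfd went from a gap of -1.08 ± 0.27 after carbon ions to one of 4.73 ± 0.19 after gamma rays, a difference of 5.81 ± 0.46, or 8.95 with Agilent's processed ratios. Cfd stood at 1.61 in the primary after carbon ions, so that the primaries differed as well as the metastases. Of 12 B cell genes measured in both gaps 11 stood higher after gamma rays, with none lower. The same held for 6 of 9 lymphoid organisation genes, 6 of 9 adipocyte genes and 15 of 24 skeletal muscle genes, with none lower. Over all genes measured in both gaps 1.87% stood higher and 0.25% lower. Ms4a1 had a gap of 1.73 ± 0.23 after carbon ions, Cxcl13 of 0.35 ± 0.05 and Ccl19 of 1.87 ± 0.06. The difference for Ccl19 was 3.67, or 1.45 with Agilent's processed ratios. Of 17 T and natural killer cell genes 7 stood higher, among them Lck with a difference of 2.31 ± 0.12. Sln differed by 5.27 ± 0.04.

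Interferon response genes stood higher in the gamma gap than in the carbon gap in 13 of 35, with none lower. The list median was -0.85 after carbon ions and 0.04 after gamma rays. Over the unirradiated primary it was 3.16 in the primary after carbon ions against 2.16 in the primary after gamma rays, and 2.53 against 2.34 in the metastases. Apol6, an interferon-induced apolipoprotein, had a gap of -2.75 after carbon ions and of -0.01 ± 0.07 after gamma rays. The largest differences to the lower side were smaller. Mid1, a microtubule-associated ubiquitin ligase, had 2.33 after carbon ions and 0.09 ± 0.17 after gamma rays, and the heat shock gene Hspa1a 1.68 and -0.11 ± 0.01. Alveolar genes were called in neither direction in 16 of 16. Over all genes measured in both gaps 1.87% stood higher and 0.25% lower, so that this count is near the share of all genes. For the cell cycle, the mitosis median was 0.08 after carbon ions, -0.51 after gamma rays and -0.39 without irradiation. No member was called in the difference of the gamma gap from the carbon gap or from the unirradiated gap.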

How the data were processed

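RNA of 6 conditions was measured on 12 two-colour Agilent arrays of design 014868, of which 4 gave the gamma gap. Per the file headers, Feature Extraction 9.1.3.1 under protocol GE2-v5_91_0806 quantified the scans, and the deposited intensity values are mean spot and median local background signals without normalization. The deposited processed signals were background-subtracted and dye-normalized per the file headers, and the deposited log10 ratios derive from them. The authors' value table repeats these log10 ratios to within 0.005, with column medians of 0. The deposited p-value column was not used. Steps beyond these were not given in the sources used here.

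Intensities were corrected with normexp (offset 50) and loess-normalized within arrays in R 4.3.3 with limma 3.58.1, control spots at weight 0 and outlier spots left out. The offset shrinks the ratios of dim probes. Later steps used Python 3.11.15, numpy 2.4.6 and pandas 2.3.3. No spot was saturated, and a channel had 53.8% to 68.8% of its spots above background. The number of arrays limits the precision. Ratios were turned by the dyes in the labels. Probes were named through RefSeq (GRCm38.p6, names alone): 22951 of 41174 matched by accession, 6659 by symbol, 3109 by an older symbol, and 8455 kept the file's name. The brightest probe stood for a gene.

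With 1 RNA per condition there is no test. The 2-fold rule in both orientations takes its place. Named genes were the 12 highest and 12 lowest called genes above background in both RNAs, up to 5 each way above it in one alone, per list up to 4 members each way and every called member where 6 or fewer were called, and the 8 highest and 8 lowest in each difference between gaps. Other members are named as the defining genes of their list. Members and lists were chosen with earlier results of these data known. Promoter windows matched by symbol.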

Additional observations from a re-analysis of the deposited data

Results flagged for a closer look

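Several genes and lists had gaps of opposite sign on every array of the comparisons set side by side, and differed by at least 2-fold in both orientations. With 1 RNA per condition none of these differences was tested. Against the unirradiated gap, which was positive, the gamma gap was negative for Igtp (difference -6.37), Cxcl9 (-6.33), Iigp1 (-6.27), Cxcl10 (-5.84), Tgtp1 (-5.57), Ifi47 (-5.10) and Gbp3 (-4.94), all interferon-induced genes, and for the median of MHC class I presentation (-2.76). It was positive against a negative unirradiated gap for Sln (7.02), Edn2 (3.91), Car3 (3.75) and Rhox5 (3.59). Against a negative carbon gap the gamma gap was positive for Cfd (5.81), Sln (5.27), the small proline-rich gene Sprr2f (2.83) and Car3 (2.70), and for the medians of adipocyte genes (1.70) and MHC class II presentation (1.21). Against a positive carbon gap it was negative for the kallikrein Klk6 (-1.85), Hspa1a (-1.79) and the olfactory receptor gene Olfr430 (-1.67). The adipocyte median of the carbon gap was -0.275 over 9 genes but 0.064 over the 8 measured in all 3 gaps, so its sign depended on the members.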

How the results depend on the processing

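With Agilent's processed ratios the genes past the 2-fold rule numbered 2740 in the gamma gap, 1445 in its difference from the unirradiated gap and 647 in that from the carbon gap, against 1500, 831 and 339 as reported. With the authors' value table they numbered 2739, 1442 and 648. The share of higher calls was 77.9% in the gamma gap with either, and 66.6% and 66.8% in the difference from the carbon gap, against 89.6% and 88.2%. Median centring in place of loess moved the median of all genes from 0.05 to -0.14, and the share of higher calls in the gamma gap to 78.9%. Single orientations gave 1602 to 1621, 1082 to 1132 and 427 to 519 genes. The counts of lower genes moved more: with offset 0 they were 275 in the gamma gap and 91 against the carbon gap, and with median centring 279 in the gamma gap, against 156 and 40. All other alternatives kept the total counts within 1.5 times, among them offset 0, scaling between arrays, both RNAs above background, no filter, the mean of probes, the mean rule and, for the first pair of counts, the gamma primary taken through the carbon primary on another slide. Of 62 named values compared, 60 kept their call under every alternative where they could be compared. Genes not above background in both RNAs, such as Scgb3a2, Cfd and Ms4a1, could not be compared under the alternative that required this. Differences from the carbon gap were not taken through the carbon primary. Ccl19 against the unirradiated gap (0.97) and Krtap17-1 against the carbon gap (-1.54) lost their call with Agilent's ratios and with the value table. Values that kept their call but moved by over 1.5 times with Agilent's ratios include the gaps of C1qtnf3 (-6.31) and Ntng1 (-4.59), Car3 against the unirradiated gap (7.37) and Reg3g against the carbon gap (1.61). With scaling Myl1 had -1.16, and Sprr2f against the carbon gap had 1.80. Some list medians near 0 changed sign, and the cause was not tested. Fibroblast genes had -0.053 with Agilent's ratios and the value table, -0.25 with median centring and -0.018 through the carbon primary. Interferon response genes had -0.053 with Agilent's ratios and the value table, -0.19 with median centring and -0.47 with scaling. Median centring gave -0.12 for smooth muscle, -0.15 for p53 targets and -0.14 for immediate early genes. No paired analysis was possible because each condition had 1 RNA, and no fit with the slide as a block, because each dye swap lay on a single slide. Probes near background limit the lung, B cell and lymphoid lists.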
